A study of Mus musculus with 14 samples.

Results

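The CD300 receptors of mouse were followed in cultured microglia as 9 genes, Cd300a, Cd300lb, Cd300c, Cd300c2, Cd300ld, Cd300ld3, Cd300lf, Cd300e and Cd300lg, found by matching these symbols to 9 of the 49315 rows of the count table. CD300 proteins are single-pass membrane receptors with 1 immunoglobulin-like domain, made mainly by myeloid cells, and many of them bind lipids such as phosphatidylserine and ceramide. Cd300a and Cd300lf carry inhibitory tyrosine motifs in their cytoplasmic tails, whereas most other members have short tails and signal through the adaptors DAP12 (Tyrobp) or the Fc receptor gamma chain (Fcer1g). In macrophages and microglia the family is known for tuning the response to dying cells and their exposed lipids. The family was chosen by the level of Cd300c2 in KO against WT in these same libraries, so every value of Cd300c2 between genotypes is a description here, and no p of it is used as support.

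The samples were primary microglia from the forebrains of TIMP2 knockout (KO) and wild-type (WT) mice, both on a background labelled C57BL/6 (C57Bl/6J in the study's methods) and aged postnatal day 6 to 7. The KO mice lacked TIMP2, the tissue inhibitor of metalloproteinases encoded by Timp2, in every tissue and not in microglia alone. Each of the 7 libraries per genotype came from a pool of 5 pups of both sexes, whose CD11b-selected cells were cultured before poly(A) RNA was sequenced, and no treatment was given to either group. The libraries held between 38875344 and 48070236 counts. Timp2 lay between 119.6 and 129 CPM (counts scaled to a common library total) in KO libraries and between 398 and 495 CPM in WT libraries, so every library had the Timp2 level that its label implies. The 15 microglial markers summed to between 12870 and 15830 CPM in KO and between 12530 and 15140 CPM in WT, with none at 0, whereas the 6 lymphocyte markers summed to at most 0.712 CPM. Astrocyte markers ran from 29.3 to 136 CPM in KO and from 32.8 to 258 CPM in WT. Marker lists differed between genotypes in sign, with a log2 fold change above 0 for 13 of 15 microglial markers (median 0.04), 5 of 6 tested border macrophage markers (0.13), 3 of 3 tested monocyte and neutrophil markers (0.91) and 4 of 5 tested endothelial markers (0.12). It was above 0 for 0 of 8 astrocyte (median −0.62), 0 of 8 neuronal (−0.36) and 0 of 7 tested oligodendrocyte lineage markers (−0.39), and no marker passed an adjusted p of 0.05 by edgeR. The part of these cells in the levels below was not tested. In bulk RNA, fewer cells of a type and less RNA per cell cannot be told apart.

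Of the 9 members, 8 lay in a run of 0.244 Mb on chromosome 11 of GRCm38 (chr11:114890041-115133992), 3.17 Mb from Timp2. Cd300lg (chr11:102041509-102055620) lay on the same chromosome but 12.8 Mb outside that run, so by position it did not belong to the cluster. The cluster also held 3 further protein-coding CD300 genes in the GENCODE annotation, Cd300ld2, Cd300ld4 and Cd300ld5, which are not among the 9 and are described where they bear on Cd300ld3. All CD300 genes of the cluster other than Cd300a were on the reverse strand. Cd300lb contains the processed pseudogene Gm11699 on the other strand and Cd300lf overlaps Rab37 on the other strand, in both cases with no shared exonic base.

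Sequence set Cd300ld3 apart from the other members. Its coding sequence of 735 bases was 99.5% identical to that of Cd300ld4 and 99.6% identical to that of Cd300ld5, and the last pair was 99.9% identical. Among the transcripts of GENCODE, 79.5% of the 150-base stretches of Cd300ld3 also occurred in another CD300 gene, against 78.7% for Cd300ld4, 100% for Cd300ld5 and 8.19% for Cd300ld2. The other 8 members shared no stretch of 150 bases with any other gene. Within the spliced transcripts, a single read of 150 bases could thus be placed in Cd300ld5 alone nowhere, and in Cd300ld3 or Cd300ld4 alone only where it covered one of a few differing bases. In the coding sequence, with positions counted from the A of the start codon, these were A15T, T25A and T30C between Cd300ld3 and both other genes, and A447G between Cd300ld3 and Cd300ld4. The first 30 coding bases and the bases from 432 to 462 are shown because they hold all of these positions, which are in capitals.
Cd300ld3 from 1 to 30: atgtggcagttcccAgctctgctcTtcctT
Cd300ld4 from 1 to 30: atgtggcagttcccTgctctgctcAtcctC
Cd300ld5 from 1 to 30: atgtggcagttcccTgctctgctcAtcctC
Cd300ld3 from 432 to 462: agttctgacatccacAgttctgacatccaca
Cd300ld4 from 432 to 462: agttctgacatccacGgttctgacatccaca
Cd300ld5 from 432 to 462: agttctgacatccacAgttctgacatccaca
Cd300ld2 aligned to the trio over 735 of its 915 coding bases and was 96.7% identical to Cd300ld3, 97.0% to Cd300ld4 and 97.1% to Cd300ld5. Next came identities of 85.7% to 86.0% between Cd300ld and these 4 genes, 84.7% between Cd300ld and Cd300lf, 84.4% between Cd300c and Cd300c2, and 82.2% between Cd300a and Cd300c2.

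The promoters followed the same division. RefSeq windows (GRCm38.p6) from 250 bases before to 50 bases after the start were matched for 10 of the 12 CD300 genes. The windows of Cd300ld4 and Cd300ld5 were identical over all 300 bases, that of Cd300ld3 was identical to both at 285 of 300 bases, and that of Cd300ld was 88.3% identical to both over 256 aligned bases. The purine-rich motif GAGGAAG, a core bound by the myeloid factor PU.1 and related ETS proteins, was searched on both strands (CTTCCTC on the reverse). It occurred in 6 of the 10 CD300 windows, those of Cd300a, Cd300ld, Cd300ld3, Cd300ld4, Cd300ld5 and Cd300lf, and in 13.6% of all 32851 windows. The windows of Cd300ld, Cd300ld3, Cd300ld4 and Cd300ld5 are close copies of each other, so these 6 are not independent occurrences. The parts of 4 windows upstream of every annotated start are shown with the motif in capitals, since the genes they precede include the member with the highest level per length and the near-identical genes whose log2 fold changes between genotypes had opposite signs.
Cd300c2 (chr11:115001881-115002130, reverse strand): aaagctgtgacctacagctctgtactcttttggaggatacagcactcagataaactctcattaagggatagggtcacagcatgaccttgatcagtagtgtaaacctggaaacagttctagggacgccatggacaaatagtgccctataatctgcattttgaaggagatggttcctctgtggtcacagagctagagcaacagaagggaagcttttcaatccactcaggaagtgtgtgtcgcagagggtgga
Cd300ld (chr11:114989923-114990136, reverse strand): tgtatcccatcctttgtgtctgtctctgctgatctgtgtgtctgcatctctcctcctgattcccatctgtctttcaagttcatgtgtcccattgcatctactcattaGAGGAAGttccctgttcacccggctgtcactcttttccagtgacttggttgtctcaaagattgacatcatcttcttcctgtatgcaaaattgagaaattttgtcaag
Cd300ld3 (chr11:115048410-115048580, reverse strand): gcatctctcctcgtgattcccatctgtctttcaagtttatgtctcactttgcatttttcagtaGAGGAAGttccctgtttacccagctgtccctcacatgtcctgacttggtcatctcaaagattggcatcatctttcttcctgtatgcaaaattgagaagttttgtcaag
Cd300ld4 (chr11:115027013-115027183, reverse strand): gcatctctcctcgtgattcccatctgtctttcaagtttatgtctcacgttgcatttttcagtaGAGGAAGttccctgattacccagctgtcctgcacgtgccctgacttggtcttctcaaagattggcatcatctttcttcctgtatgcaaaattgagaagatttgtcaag
The stretch upstream of Cd300ld5 is the same as that of Cd300ld4. The stretch upstream of Cd300c2 holds no GAGGAAG or CTTCCTC. Only exact matches were searched for, and that stretch does hold caggaag, which differs from the motif at its first base.

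The members fell into 5 that microglia expressed well and 4 that were barely detected. Per length of exon, Cd300c2, an activating receptor that pairs with DAP12 and the Fc receptor gamma chain, was highest in WT, at 109.6 ± 7.67 CPM per kb (SD, n = 7), above 97.7% of tested genes. Cd300lb, which couples to DAP12, followed at 43.6 ± 3.92 CPM per kb, then Cd300ld3 at 37.5 ± 4.24, the inhibitory Cd300a at 29.6 ± 2.85 and Cd300ld, which couples to the Fc receptor gamma chain, at 18.3 ± 4.69. The range of Cd300c2 did not meet that of Cd300lb, whose mean it exceeded 2.51-fold. From Cd300lb down to Cd300ld each gene's range over the 7 libraries met that of the next.

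A gap of 70.3-fold in mean level per kb then separated Cd300ld from Cd300lf, the second inhibitory member, at 0.260 ± 0.0815 CPM per kb. Cd300e, an activating receptor known from monocytes, was at 0.149 ± 0.0640 CPM per kb, Cd300c at 0.146 ± 0.104, and Cd300lg, which is known from endothelial cells, at 0.0914 ± 0.0329. The ranges of neighbours in this order met throughout, and these genes rested on few reads, from 29 to 81 counts per WT library for Cd300lf, 7 to 25 for Cd300e, 2 to 13 for Cd300c and 8 to 19 for Cd300lg. In KO the order was the same except that Cd300ld3, at 56.7 ± 17.8 CPM per kb, stood above Cd300lb at 50.4 ± 9.24, in 4 of 7 libraries.

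**Figure D1:**
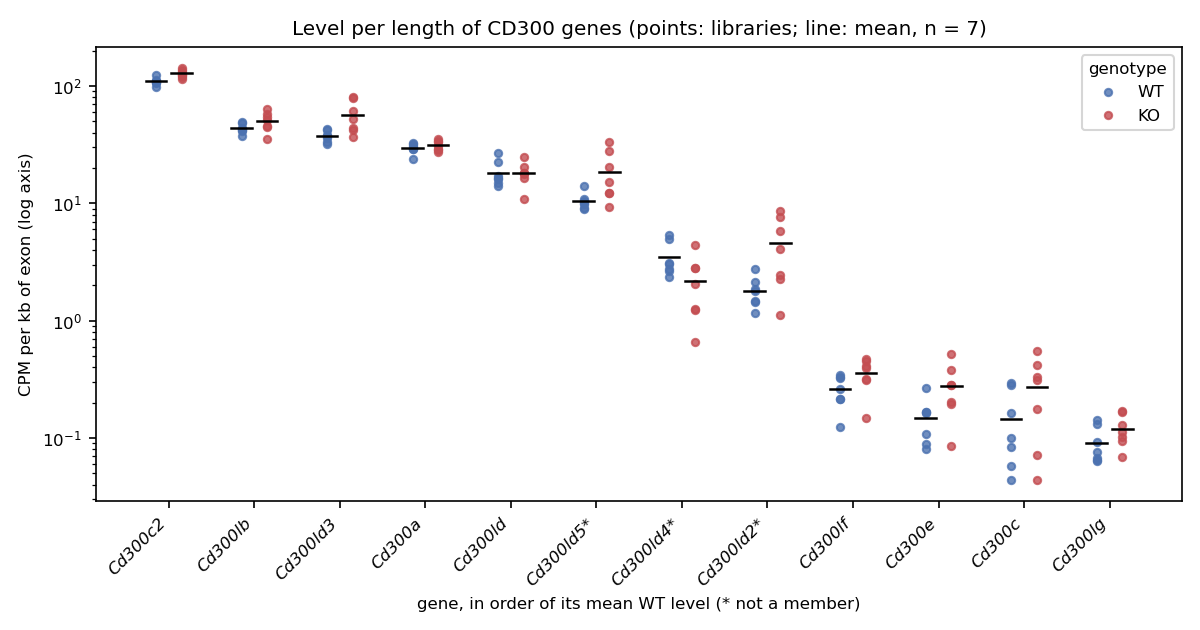
Level of 12 CD300 genes in CPM per kb of exon on a log axis, ordered by the WT mean, with a point for each of 7 WT (blue) and 7 KO (red) libraries and a line at the mean, and with stars on genes outside the 9. Cd300c2 is highest at a WT mean of 109.6 and the 4 genes at the right lie below 1 CPM per kb in every library.

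In CPM, Cd300c2, Cd300lb and Cd300a made up between 77.6% and 86.9% of the family's total in every library. The total over the 9 members ran from 514 to 598 CPM in KO, with a median of 563, and from 461 to 512 CPM in WT, with a median of 487. Without Cd300c2, by which the family was chosen, the total of the other 8 members ran from 355 to 430.0 CPM in KO and from 323 to 373 CPM in WT, and the groups overlapped, with 5 of 7 KO libraries above the WT range.

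KO was then compared with WT for each member. By edgeR's quasi-likelihood test over 15700 genes, 0 of the 8 members tested passed an adjusted p of 0.05, where 0.0191% of all genes did. DESeq2 called 0 of them, where it called 0.0318% of 34581 genes, a larger set not filtered for low counts beforehand. Cd300c, with 2 to 25 counts per library, was not tested. At an unadjusted p under 0.05 there were 3 members, Cd300c2, Cd300ld3 and Cd300e, all higher in KO, against 3.37% of all genes in either direction and 1.75% higher in KO. The log2 fold change was above 0 for 7 of the 8, as for 50.8% of all genes, with a median of 0.30 against 0.0016 over all genes. In all 8 the KO and WT libraries overlapped, where 0.0828% of all genes had no overlap, and for 6 of the 8 at least 3 KO libraries lay above every WT library, as for 9.81% of all genes. Since the family was chosen by Cd300c2 in this same contrast, these counts are a description.

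**Figure D2:**
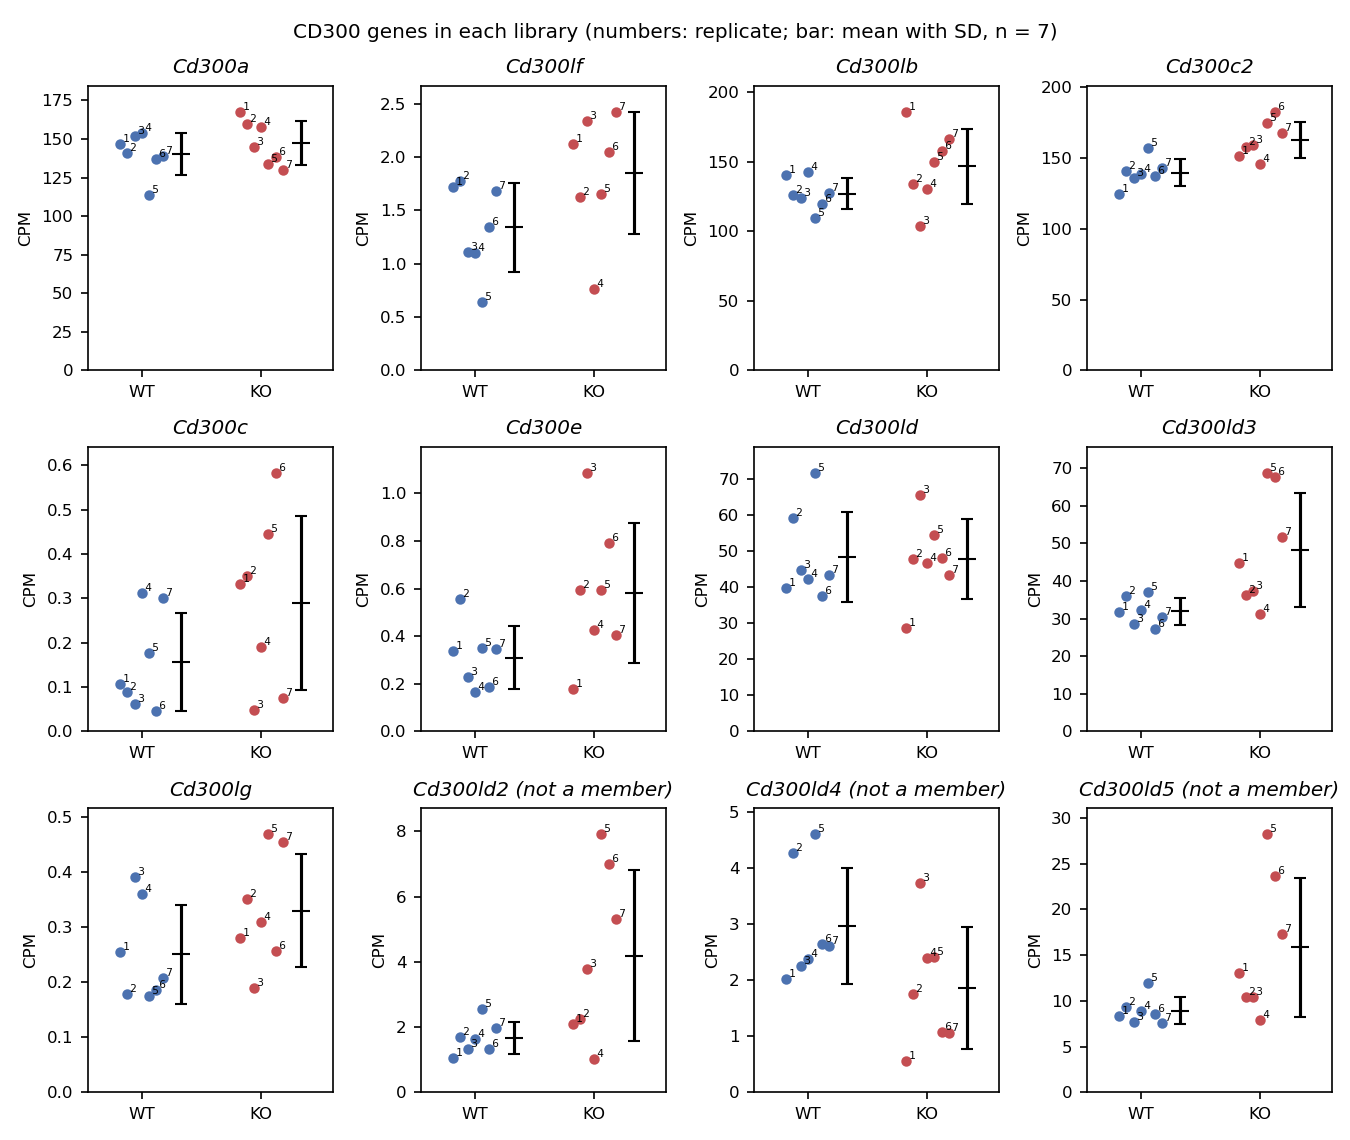
CPM of each CD300 gene in every library, by genotype, with the replicate number beside each point and the mean with its SD at the right of each group (n = 7), on axes that start at 0. For Cd300c2, 5 KO libraries lie above every WT library, and for Cd300ld2, Cd300ld3 and Cd300ld5 the KO libraries 5, 6 and 7 lie above all others.

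Cd300c2 lay at 146 CPM in its lowest KO library, at a median of 159 and at 183 in its highest. In WT its lowest, median and highest libraries had 124, 139 and 157 CPM. Only 1 WT library, replicate 5, reached into the KO range, and 5 of 7 KO libraries lay above every WT library. The KO mean was 163 ± 13.0 CPM and the WT mean 139.7 ± 9.79 CPM (SD, n = 7 each), a ratio of 1.17 and a log2 fold change of 0.22 (SE 0.054). Its coefficient of variation, 7.97% in KO and 7.00% in WT, was the lowest of the members in each genotype. The level of Cd300c2 moved with the summed microglial markers across the 14 libraries (Pearson's r = 0.83 between deviations from the genotype means, Spearman's rho = 0.83). Those markers averaged 0.061 higher in KO on the log2 scale, and relative to them the difference of Cd300c2 was 0.16. The part of that movement in the result was not tested further.

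The inhibitory members overlapped between the genotypes. Cd300a had a lowest, median and highest level of 129.7, 145 and 168 CPM in KO and of 113, 141 and 154 CPM in WT, with 3 KO libraries above the WT range and the rest within it. Its log2 fold change was 0.07 (SE 0.070), and 0.03 without WT replicate 5, its lowest library. Of the marker lists, the deviations of Cd300a moved most strongly against the endothelial (r = −0.795, rho = −0.749) and microglial markers (r = −0.672, rho = −0.763). With the neuronal markers they had r = 0.657 (rho = 0.679). The part of these lists in the level of Cd300a was not tested. Cd300lf had 0.760, 2.05 and 2.42 CPM in KO and 0.637, 1.35 and 1.78 CPM in WT, with a log2 fold change of 0.47 (SE 0.25). For Cd300lf, 4 KO libraries lay above the WT range and KO replicate 4 near its lower end, and its deviations moved with the summed monocyte and neutrophil markers (r = 0.62, rho = 0.76).

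Among the adaptor-coupled members, Cd300lb had 104, 150.0 and 186 CPM in KO and 109.9, 126 and 143 CPM in WT. The KO libraries spread on both sides of WT, with 4 above its highest library and 1 below its lowest, and the log2 fold change was 0.21 (SE 0.10). Cd300ld had 28.6, 47.7 and 65.6 CPM in KO and 37.4, 43.4 and 71.6 CPM in WT, with a log2 fold change of −0.02 (SE 0.17). The sign of this value turned when KO replicate 1 or 7 or WT replicate 2 or 5 was left out, to at most 0.10. Cd300ld was highest in KO replicate 3 and WT replicate 5, the libraries in which the border macrophage markers were also highest, at 816 and 876 CPM against 446 to 772 CPM elsewhere. Across libraries the deviations of Cd300ld and of those markers had r = 0.72 (rho = 0.68). Their part in its level was not tested.

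Cd300e had 0.179, 0.592 and 1.09 CPM in KO and 0.168, 0.339 and 0.556 CPM in WT, from 7 to 46 counts per library. Its log2 fold change of 0.90 (SE 0.35) was the highest of the members and the least precise, and it was 0.68 without KO replicate 3. That library and WT replicate 2, the highest for Cd300e in each genotype, were also the highest for the monocyte and neutrophil markers, at 21.6 and 14.1 CPM, where the genotype medians were 5.55 and 4.55 CPM. KO replicate 7 came next among KO libraries for those markers, at 15.4 CPM, but its Cd300e, at 0.404 CPM, lay below the KO median. Ly6c2, Ly6g and Retnlg of that list were at 0 in some libraries. KO replicate 3 was also the highest KO library for the border macrophage markers, while WT replicate 5 was the highest WT library for them. Across libraries the deviations of Cd300e had r = 0.68 with the border macrophage markers (rho = 0.81). With the monocyte and neutrophil markers they had r = 0.57 (rho = 0.45). The part of either kind of cell in the level of Cd300e was not tested. Cd300c had 0.0472, 0.332 and 0.583 CPM in KO and 0.0464, 0.106 and 0.311 CPM in WT, with the lowest library at the same level in both groups and 4 KO libraries above the WT range, at 2 to 25 counts per library. Cd300lg had 0.189, 0.309 and 0.469 CPM in KO and 0.176, 0.208 and 0.391 CPM in WT, with 2 KO libraries above the WT range and a log2 fold change of 0.39 (SE 0.26). The adjusted p of the tested members other than Cd300c2 lay between 0.943 and 0.991 by edgeR.

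**Figure D3:**
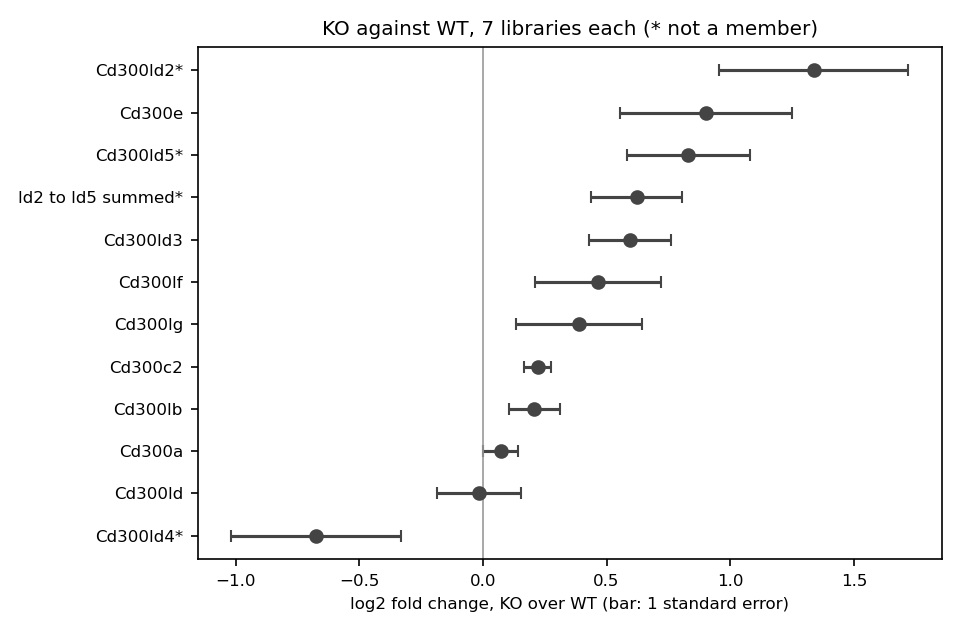
Log2 fold change of KO over WT for the 8 tested members, the 3 further CD300 genes (stars) and the sum of Cd300ld2 to Cd300ld5, with bars of 1 standard error (n = 7 libraries per genotype). Cd300c2 has the smallest error among the genes drawn, 0.054, and Cd300ld4 alone lies well below 0, at −0.67.

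Cd300ld3 had 31.3, 44.8 and 68.8 CPM in KO and 27.1, 31.9 and 37.0 CPM in WT. KO replicates 5, 6 and 7, at 68.8, 67.8 and 51.7 CPM, stood above all other libraries, replicates 1 and 3 were above the WT range by less, and replicates 2 and 4 were within it. The endothelial markers were also highest in KO replicates 5, 6 and 7, at 61.3 to 65.0 CPM against 44.1 to 47.2 CPM in the other KO libraries. They ran from 52.5 to 55.9 CPM in WT replicates 5, 6 and 7 and from 34.8 to 42.7 CPM in the other WT libraries, where Cd300ld3 showed no such split. Over the 14 libraries the deviations of the endothelial markers had r = 0.52 with Cd300ld3, 0.62 with Cd300ld5 and 0.60 with Cd300ld2. Those of the microglial markers had r = 0.37 with Cd300ld3, 0.46 with Cd300ld5 and 0.72 with Cd300ld2. The part of either list in the result was not tested. The KO mean was 48.3 ± 15.2 CPM against 31.9 ± 3.62 CPM in WT, a ratio of 1.51 and a log2 fold change of 0.60 (SE 0.16). The coefficient of variation was 31.4% in KO and 11.3% in WT.

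The near-identical neighbours lay on both sides of WT. Cd300ld5 had 7.86, 13.0 and 28.2 CPM in KO and 7.59, 8.52 and 11.9 CPM in WT, a log2 fold change of 0.83 (SE 0.25). Cd300ld2 had 1.02, 3.78 and 7.92 CPM in KO and 1.06, 1.65 and 2.55 CPM in WT, a log2 fold change of 1.34 (SE 0.38). Both were highest in KO replicates 5, 6 and 7. Cd300ld4 had 0.562, 1.75 and 3.73 CPM in KO and 2.01, 2.61 and 4.61 CPM in WT, a log2 fold change of −0.67 (SE 0.34), with 4 KO libraries below the WT range. The adjusted p of the 3 genes was 0.943 by edgeR.

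As a share of the counts of the 4 genes, Cd300ld3 held from 64.1% to 74.1% in KO and from 65.9% to 73.6% in WT, so the WT range lay within the KO range. Cd300ld4 held from 0.928% to 6.76% in KO, with a median of 2.25%. In WT it held from 4.645% to 8.32%, with a median of 6.10%. The ranges of Cd300ld4 overlapped, with KO replicates 3 and 4 within the WT range and KO replicates 1, 2, 5, 6 and 7 below it. Its share was lowest in KO replicate 1, at 0.928% of 2370 counts (exact binomial 95% interval 0.583% to 1.40%, counting error only). With the 4 genes summed, a choice made after seeing the data, the level was 70.2 ± 24.9 CPM in KO and 45.5 ± 6.11 CPM in WT, and the log2 fold change was 0.62 (SE 0.18, adjusted p = 0.944 by edgeR). How reads that fit several of these genes were counted is not given in the sources used here, so the levels of Cd300ld3 and of the 3 further genes are uncertain one by one.

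**Figure D4:**
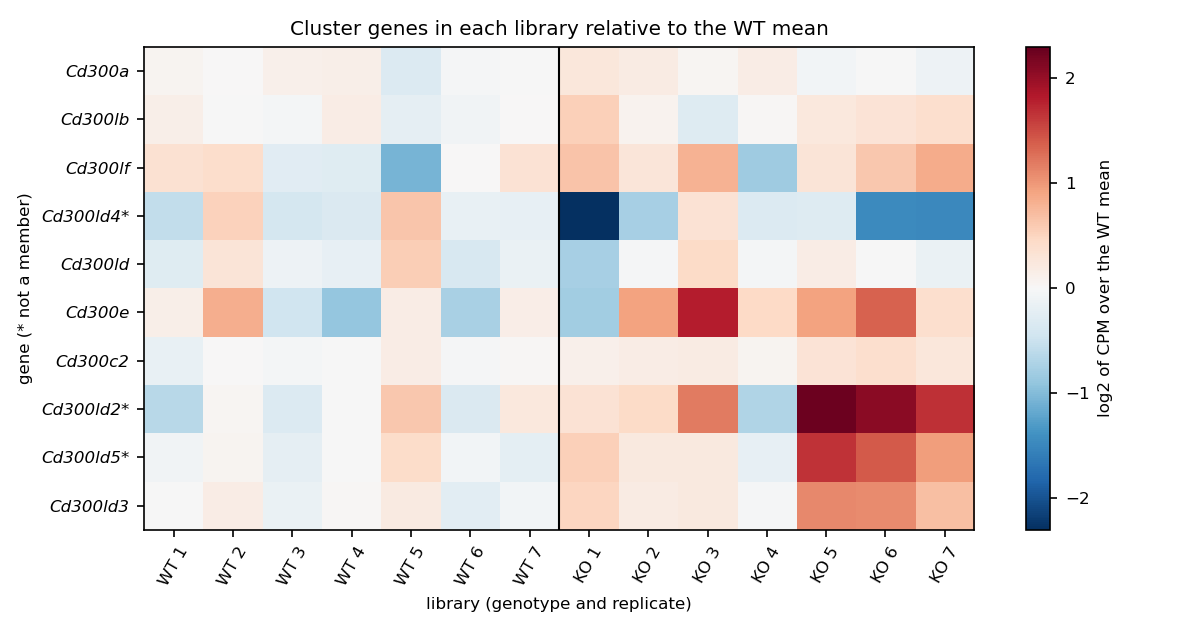
Log2 of each library's CPM over the WT mean for 7 members of the cluster and the 3 further CD300 genes (stars), with WT libraries left of the line and KO libraries right of it. KO 5, 6 and 7 stand out in Cd300ld2, Cd300ld5 and Cd300ld3, while Cd300ld4 is lowest in KO 1, 6 and 7.

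Within genotypes, the members did not vary as a block. Deviations of log2 CPM from the genotype mean were compared over the 14 libraries, which share depth scaling and culture makeup, and the values are given as a description. Cd300c2 moved with Cd300ld2 (r = 0.89, and 0.94 within KO and 0.96 within WT), with Cd300ld5 (r = 0.78) and with Cd300ld3 (r = 0.74). It moved against Cd300a (r = −0.78, and −0.79 within KO and −0.77 within WT). Cd300ld moved with Cd300e (r = 0.80) and with Cd300ld4 (r = 0.87), and against Cd300lb (r = −0.73). Cd300ld3 moved with Cd300ld5 (r = 0.97) but not with Cd300ld4 (r = −0.14, and −0.31 within KO against 0.73 within WT), although these genes share nearly all of their sequence. Cd300ld4 and Cd300ld5, with identical promoter windows, had r = −0.10 over all libraries, −0.24 within KO and 0.79 within WT. How reads that fit several of Cd300ld2 to Cd300ld5 were counted is not given. The values of these genes, here and in the order of likeness below, therefore cannot be read as those of separate genes.

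Over all 15699 other tested genes, the 5 most like Cd300c2 by Pearson's r over 14 libraries were Nudt14 (r = 0.93), Ptgs1 (r = 0.92), Ppfia4 (r = 0.92), Il18bp (r = 0.92) and Sugct (r = 0.91). Ptgs1 encodes cyclooxygenase 1 and Il18bp a secreted binder of interleukin 18. Cd300ld2 came 11th of the 15699 in that order by its r, Cd300ld5 was in place 207 and Cd300ld3 in place 335, while Cd300a was in place 15487. For Cd300lb, the member next in level, the 5 genes were Ndufaf2 (r = 0.95), Gnptab (r = 0.90), Qpct (r = 0.90), Ndst1 (r = 0.90) and Zfp251 (r = 0.90), and the CD300 gene nearest the top was Cd300lg in place 1559. Their log2 fold changes between genotypes ran from −0.16 for Qpct to 0.27 for Il18bp, and none of the 10 had an adjusted p under 0.05 by edgeR.

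The partners through which CD300 receptors signal were followed as 26 genes, of adaptors, kinases, phosphatases and lipid enzymes, and all were tested. None passed an adjusted p of 0.05 by edgeR (0.0191% of all genes did), and 1 had an unadjusted p under 0.05 (3.37% of all genes). A log2 fold change above 0 was found for 20 and below 0 for 6 (above 0 for 50.8% of all genes), with a median of 0.05. That gene was Fyn, a Src-family kinase, at 74.5 ± 3.62 CPM in KO and 81.2 ± 2.96 CPM in WT (log2 fold change −0.12, SE 0.033, adjusted p = 0.943 by edgeR). The next by p were Plcg2, a phospholipase downstream of Syk, with a log2 fold change of 0.04 (SE 0.020), the phosphatases Ptpn11 (−0.03, SE 0.018) and Ptpn6 (0.10, SE 0.063), which bind inhibitory tyrosine motifs, and the kinase subunit Pik3cd (0.10, SE 0.060). The adaptors themselves, named after their values were seen, were abundant, with Tyrobp at 749 ± 41.8 CPM in KO and 734 ± 23.5 CPM in WT and Fcer1g at 517 ± 27.6 and 501 ± 19.9 CPM.

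Of 24 other inhibitory and activating receptors of myeloid cells, 22 were in the table and 18 were tested. None passed an adjusted p of 0.05 or an unadjusted p of 0.05 by edgeR, where 0.0191% and 3.37% of all genes did. The log2 fold change was above 0 for 15 and below 0 for 3, with a median of 0.10, where 50.8% of all genes were above 0. The smallest p belonged to Clec7a, the beta-glucan receptor Dectin-1, at 638 ± 90.7 CPM in KO and 568 ± 64.1 CPM in WT (log2 fold change 0.17, SE 0.092). Fcgr3, an activating Fc receptor (0.06, SE 0.040), Clec5a (0.14, SE 0.092), Cd200r4 (0.18, SE 0.13) and Pilrb2 (0.54, SE 0.42) followed.

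Genes of other families around the cluster were read for position. Within 0.5 Mb of it, 28 such genes were tested, none passed an adjusted p of 0.05 by edgeR (0.0191% of all genes) and 3 had an unadjusted p under 0.05 (3.37% of all genes). Their log2 fold changes ran from −0.57 to 0.41 with a median of −0.04, and 8 were above 0 and 20 below, where 50.8% of all genes were above 0. Slc9a3r1, a scaffold of membrane proteins and the nearest tested gene on the Timp2 side, had 88.3 ± 8.01 CPM in KO and 99.5 ± 3.03 CPM in WT (log2 fold change −0.17, SE 0.048). Grin2c, a glutamate receptor subunit, had −0.57 (SE 0.24), and the pseudogene Gm11699 inside Cd300lb had 0.41 (SE 0.15). Together with Cd300ld2 and Cd300ld5 these were the 5 genes with the smallest p in the window, the members left aside.

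**Figure D5:**
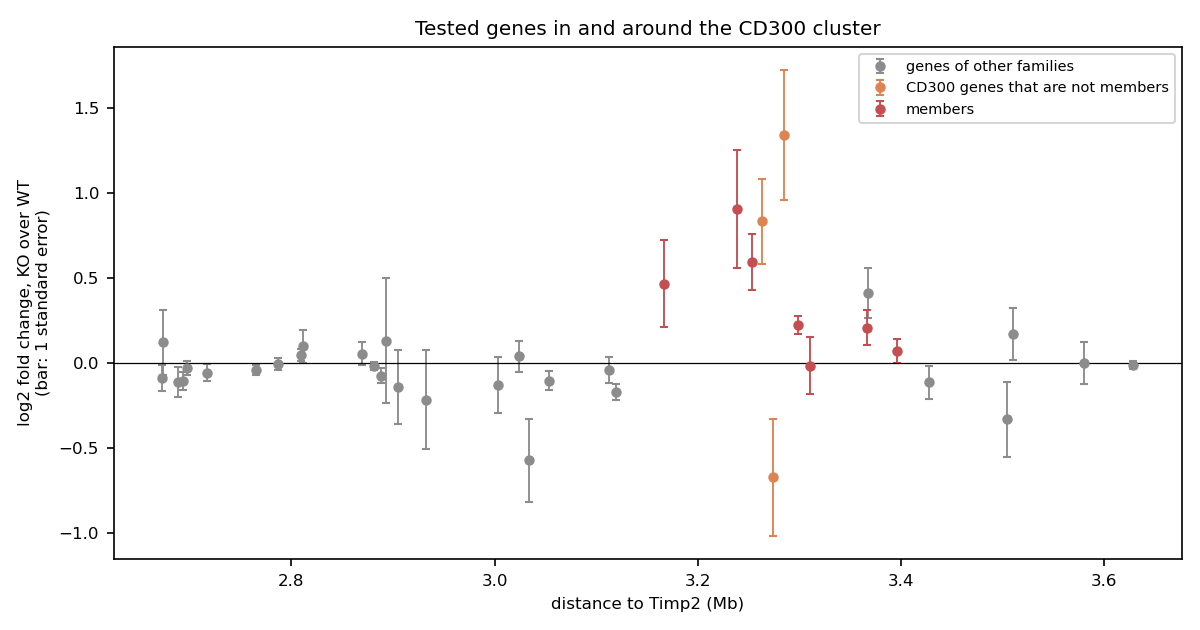
Log2 fold change of KO over WT, with bars of 1 standard error, against distance to Timp2 in Mb for 7 tested members (red), the 3 further CD300 genes (orange) and 28 tested genes of other families within 0.5 Mb of the cluster (grey). The CD300 genes above 0.5 on the vertical axis lie between 3.2 and 3.3 Mb from Timp2, and the grey genes lie between −0.57 and 0.41.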

How the data were processed

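RNA was measured in 14 libraries, 7 of each genotype, each an independent isolation from 5 pooled pups. The deposited values are raw counts per gene. The submitters' processing notes name the read trimmer Trimmomatic 0.36, the aligner STAR 2.5.2b, the counter featureCounts (Subread 1.5.2) and the build GRCm38. The strand setting, the annotation release and the treatment of reads that fit several genes are not given in the sources used here. The authors modelled batch as a covariate, but the batch of each library is not given, so genotype alone was modelled. Cd300c2 is among the genes labelled on the study's volcano plot of KO against WT, and the main fit here is not the study's fit. The effect of the missing batch term was not tested.

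Gene IDs were matched to GENCODE M21 (49056 of 49315). Genes were kept by filterByExpr (minimum count 10, minimum total 15), scaled by TMM and tested with edgeR 4.0.16 by its quasi-likelihood test with Benjamini-Hochberg adjustment (R 4.3.3, threshold 0.05). CPM used TMM-scaled library sizes, and CPM per kb used the union of a gene's exons. Log2 CPM for deviations had a prior count of 1. Correlations were computed with Python 3.11.15 and scipy 1.17.1. Shared sequence was counted as stretches of 150 bases of GENCODE transcripts. The alternatives were DESeq2 1.42.0, other scalings, no filter, a robust fit, a replicate block and leaving out each library. The fits were tested on simulated data.

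The members, lists and alternatives were chosen with earlier results of these data known. The named genes were the members, Timp2, the other CD300 genes, the 5 with the smallest p of each list and of the genes within 0.5 Mb of the cluster, and the 5 most like Cd300c2 and the next most expressed member. Marker lists were summed and not tested. The mast cell markers, left out of the results, summed to 0.839 to 3.88 CPM over all libraries. Of the 2 with a fit, 1 had a log2 fold change above 0 (median −0.25). Over all libraries endothelial markers summed to 34.8 to 65.0 CPM, neuronal markers to 18.8 to 48.9 CPM and oligodendrocyte lineage markers to 73.2 to 133 CPM.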

Additional observations from a re-analysis of the deposited data

Results flagged for a closer look

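In a group of 7 libraries, a library was picked out when its gap to the nearest other, divided by the range of the group, exceeded Dixon's 95% value for that number. Of 26 groups (12 CD300 genes and Timp2 in each genotype) 3 had such a library, where chance alone gives about 1 in 20. Cd300a was lowest in WT replicate 5, at 113 CPM, with the next library at 137 CPM. Cd300ld5 was highest in the same WT replicate 5, at 11.9 CPM, with the next at 9.30 CPM. Timp2 was highest among KO libraries in replicate 4, at 129 CPM, with the next at 123 CPM. WT replicate 5 had the lowest astrocyte marker sum among WT libraries, 32.8 CPM, and the highest microglial sum, 15140 CPM. Their part in these levels was not tested.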

How the results depend on the processing

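By edgeR, 3 genes passed an adjusted p of 0.05 in the comparison of KO with WT. DESeq2 called 11 (5 higher in KO and 6 lower) and DESeq2 with the replicate block 27 (16 higher and 11 lower), and leaving out 1 library gave 3 to 4. No member was called in any of these fits except DESeq2 with the replicate block, which called 1, Cd300c2 (log2 fold change 0.22, adjusted p = 5.81e-04). That fit called 0.178% of the 15139 genes to which it gave an adjusted p. As the family was chosen by Cd300c2 in this contrast, that call is no independent support. Over the other alternatives the adjusted p of Cd300c2 ran up to 1.00, with 0.264 for edgeR with the replicate block and 0.304 for DESeq2, and its log2 fold change from 0.16 to 0.25. Whether the replicate numbers pair the samples is not settled. The correlation of same-numbered KO and WT libraries ran from −0.20 to 0.74 and was over 0.1 in 3 of 7 pairs. Of the KO libraries, 1 of 7 correlated best with its own number, while endothelial markers were higher in replicates 5 to 7 than in 1 to 4 in both genotypes. Cd300c2 was higher in KO in 7 of 7 same-numbered pairs. That count cannot bear on pairing, since 6 of 7 WT libraries lay below every KO library for this gene. The log2 fold change of Cd300ld turned positive without KO replicate 1 (0.07), KO replicate 7 (0.0060), WT replicate 2 (0.04) or WT replicate 5 (0.10), and ran from −0.11 to 0.10 when single libraries were left out. The other tested members kept their direction in all 23 alternatives. Of the 5 genes most like Cd300c2, 3 were also among the 5 by Spearman's rho, and 1 of 5 for Cd300lb. WT levels per kb moved by less than 1 SD with RLE scaling or with the longest transcript as the length. With the longest transcript, Cd300c, at 0.2225 CPM per kb, stood above Cd300e, at 0.1487, so the order of these genes turned. Depth limits Cd300c, Cd300e, Cd300lf and Cd300lg, with fewer than 100 counts in every library.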
